A study of Mus musculus with 2 samples.

Results

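Forkhead (Fox) and T-box (Tbx) genes encode 2 families of transcription factors, and they were compared between 1 library of supportive intestinal subepithelial myofibroblasts (ISEMFs) and 1 library of non-supportive ISEMFs. Members were the protein-coding genes of the deposited table whose symbol is Fox or Tbx followed by the letter and number of the family, which gave 43 forkhead and 13 T-box genes, 56 of the 22379 protein-coding genes listed. Both populations were wild-type C57BL/6 cells grown from the small intestine in culture. The supportive ISEMFs came from neonatal mice and the non-supportive ISEMFs from adult mice, so age and population cannot be told apart. The name of the deposited data also carries P16 beside the supportive and P3 beside the non-supportive library, which the sources used here do not explain. The number of mice behind each library is not stated clearly in the sources used here. Neither population had a replicate, so no difference has a replicate check and no p-value is given.

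Forkhead proteins bind DNA through a winged-helix domain and are sorted by letter into subfamilies. FoxO factors are switched off by insulin and growth factor signaling through Akt, FoxM1 drives the genes of mitosis, FoxA factors belong to endodermal epithelium, and FoxF factors and FoxL1 are made by the mesenchyme of the gut wall in response to Hedgehog ligands from the epithelium. T-box proteins share the DNA-binding domain of Brachyury and pattern the heart, limbs and mesenchyme of the embryo. Cells of mesenchymal origin often keep a set of such factors that reflects where in the body they arose.

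Gene counts summed to 50674472 reads for supportive and 49615497 for non-supportive ISEMFs, of which 56775 and 40172 were on forkhead and T-box genes. Levels are given as reads and as RPKM, the read number scaled to exon length and to library size. Values joined by "against" or "and" give the supportive library first. Ratios are supportive over non-supportive, a gene called lower has the inverse ratio, with a 95% exact (Clopper-Pearson) interval from the reads that covers counting error only. Log2 ratios are of RPKM with a pseudocount of 0.1, which understates differences of genes with low values. Of the myofibroblast markers, Acta2, the gene of α-smooth muscle actin, had RPKM values of 908 (supportive) and 1410 (non-supportive), Vim 325 and 407, and Des, the gene of desmin, 0.575 and 3.40. Markers of other cell types differed as well. All 6 macrophage markers were lower in supportive ISEMFs by the counting interval described below, where 10.5% of all protein-coding genes were called lower. Their RPKM summed to 6.86 against 118, and Ptprc and Tyrobp had no read in supportive ISEMFs. The 7 epithelial markers summed to an RPKM of 0.530, mostly from Cdh1, and 3.47, mostly from Krt20. The part of these other cells in the differences described here was not tested, and in bulk RNA fewer cells of a type and less RNA per cell cannot be told apart.

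Of the 56 genes, 39 had a read in either library and 17 had none. At least 10 reads over both libraries were found for 31, and 20 reached 1 RPKM in at least 1 of the libraries, 15 of them in both. A difference of at least 2-fold was found in 11 of them, as 8 genes had more and 3 less RNA in supportive ISEMFs. The 8 higher genes make 40.0% of the 20, where 9.25% of the 9110 protein-coding genes that passed the same minimum were as much higher. The 3 lower genes make 15.0%, against 8.98% of all. Tbx20, Foxc1 and Foxp2 reached 1 RPKM in supportive ISEMFs only, and Foxf2 and Tbx3 in non-supportive ISEMFs only. These genes are all among the 11, and they passed the minimum only through the library where they were high. Of all protein-coding genes, 646 reached it in supportive ISEMFs only and 609 in non-supportive ISEMFs only. The median absolute log2 ratio of the 20 genes was 1.14, against 0.41 for all protein-coding genes, and the median log2 ratio was 0.62 against -0.07. Transcription factors often lie below an RPKM of 1, so the 31 genes with at least 10 reads were also sorted by whether the whole counting interval lay beyond 2-fold. By this rule 9 genes (29.0%) were higher and 5 (16.1%) lower in supportive ISEMFs, where 8.71% and 10.5% of all protein-coding genes were called. The higher genes were Tbx20, Tbx15, Foxp2, Foxc1, Foxo1, Foxs1, Foxc2, Foxn3 and Foxd1, and the lower ones Foxf2, Foxn1, Foxq1, Tbx18 and Tbx3.

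**Figure D1:**
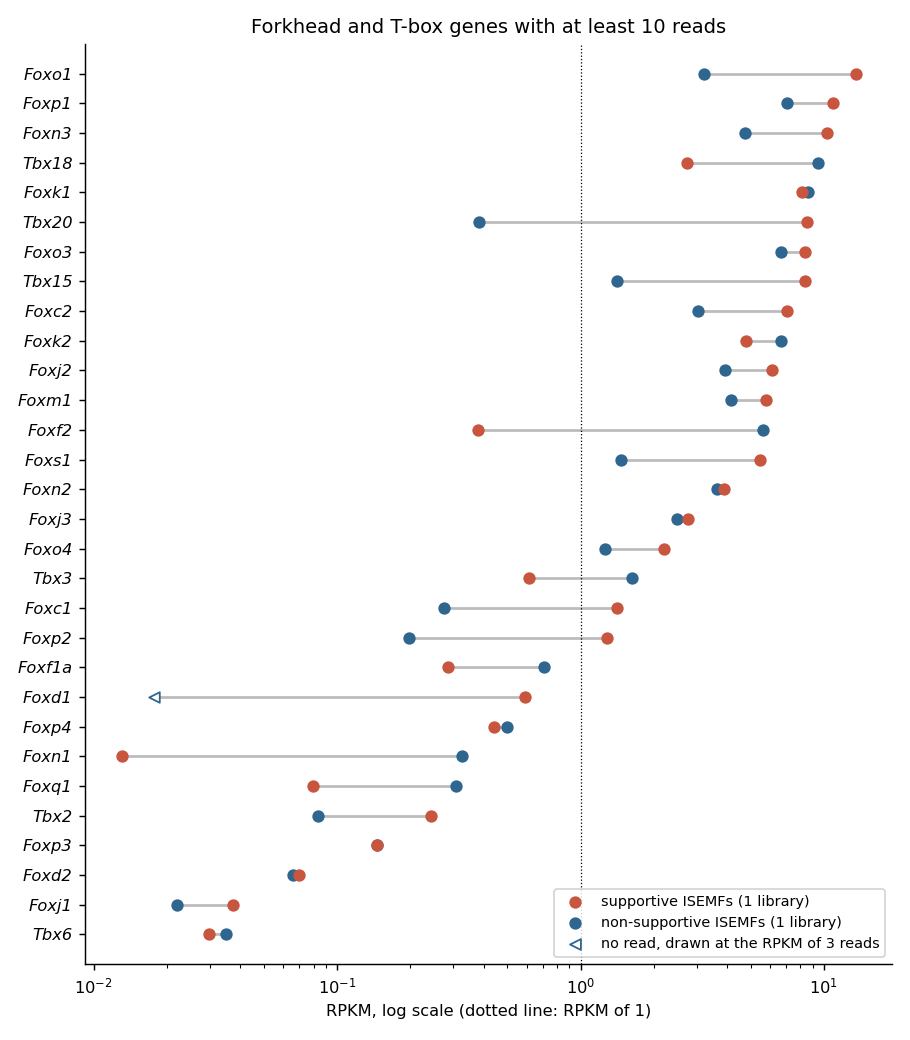
RPKM on a log scale of 30 forkhead and T-box genes with at least 10 reads, with 1 point per library and the genes ordered by their higher level. Tbx20, Foxd1, Foxn1 and Foxf2 have the widest gaps between the libraries, while Foxk1, Foxn2 and Foxp3 nearly coincide.

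With the deposited exon lengths, Tbx20 and Tbx15 had the highest T-box RPKM in supportive ISEMFs at nearly equal levels, and Tbx18 in non-supportive ISEMFs. Tbx20, known for its role in the developing heart, had 2727 reads (RPKM 8.49) against 119 reads (RPKM 0.381.) It was 22.3-fold higher in supportive ISEMFs (interval 18.5 to 27.0, log2 ratio 4.16). Tbx15, a factor of skeletal and dermal mesenchyme, had 2295 reads (RPKM 8.34) against 376 reads (RPKM 1.41), which is 5.93-fold higher (5.32 to 6.63). Together these genes made 41.5% and 40.8% of the summed RPKM of the T-box family in supportive ISEMFs, and 2.92% and 10.8% in non-supportive ISEMFs.

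Tbx18 and Tbx3 went the other way. Tbx18, which marks the mesenchyme of the ureter and the epicardium, had 916 reads (RPKM 2.74) against 3083 reads (RPKM 9.49), which is 3.46-fold lower (3.22 to 3.73). Tbx18 alone made 72.7% of the summed T-box RPKM in non-supportive ISEMFs and 13.4% in supportive ISEMFs, with the deposited exon lengths. Tbx3, a repressor active in limb and heart, had 526 reads (RPKM 0.616) against 1346 reads (RPKM 1.62), which is 2.63-fold lower (2.38 to 2.92). The mesothelial markers, which mark another cell type with Tbx18, summed to an RPKM of 0.133 and 0.651, with 1 and 7 reads on Wt1, 0 and 5 on Msln, 21 and 0 on Upk3b and 1 and 93 on Krt19, and their part in the result was not tested. The summed RPKM of the 13 T-box genes was 20.5 in supportive and 13.1 in non-supportive ISEMFs, a ratio of 1.57.

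The other T-box genes stayed below 1 RPKM. Tbx2 had 63 reads against 21, a 2.92-fold higher level whose interval of 1.75 to 5.03 reaches below 2. Tbx6 had 7 and 8 reads, and Tbx10 had 0 and 4. Tbx1, Tbx4, Tbx5, Tbx19, Tbx21 and Tbx22 had no read in either library. Tbx4 and Tbx5, the limb and lung factors, are adjacent to the detected Tbx2 and Tbx3 in the mm9 genome. Tbx4 starts 44.5 kb beyond the end of Tbx2 on chromosome 11, and Tbx5 starts 150 kb beyond the end of Tbx3 on chromosome 5.

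**Figure D2:**
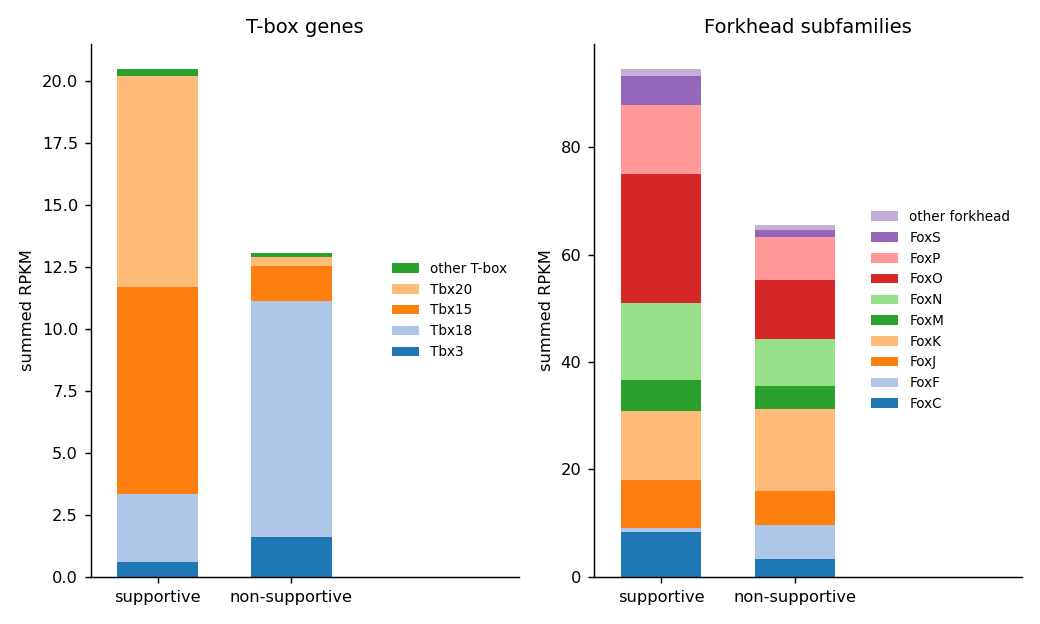
Summed RPKM per library of the T-box genes (left) and of the forkhead subfamilies (right), stacked by gene or subfamily, with 1 bar per library. Tbx20 and Tbx15 fill most of the supportive T-box bar and Tbx18 most of the non-supportive one, and FoxO is the thickest forkhead layer of the supportive library.

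The promoters of Tbx20 and Tbx18 are shown because these genes differ in opposite directions. Each runs from 250 bases before to 50 bases after the transcript start in RefSeq on GRCm38.p6, is written 5′ to 3′ on the gene's strand, and has every CpG in capitals. Tbx20 lies on the minus strand, with its promoter at chr9:24774254-24774553, and Tbx18 on the minus strand with its promoter at chr9:87731211-87731510. The Tbx20 promoter holds 26 CpG and is 68.3% G and C, and that of Tbx18 holds 15 CpG and is 51.7% G and C.
Tbx20 promoter: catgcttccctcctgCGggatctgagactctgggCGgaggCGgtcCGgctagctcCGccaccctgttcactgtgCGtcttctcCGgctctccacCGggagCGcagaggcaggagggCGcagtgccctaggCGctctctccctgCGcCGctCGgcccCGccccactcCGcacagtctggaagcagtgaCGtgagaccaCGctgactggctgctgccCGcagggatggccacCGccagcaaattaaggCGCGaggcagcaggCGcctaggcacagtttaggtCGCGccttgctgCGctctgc
Tbx18 promoter: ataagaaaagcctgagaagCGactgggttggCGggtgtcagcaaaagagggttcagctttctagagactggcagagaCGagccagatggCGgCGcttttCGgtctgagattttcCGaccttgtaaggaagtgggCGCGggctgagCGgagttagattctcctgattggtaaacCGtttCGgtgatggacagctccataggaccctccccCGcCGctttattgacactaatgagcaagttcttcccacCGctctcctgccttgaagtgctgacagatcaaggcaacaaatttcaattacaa

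Foxf2, a factor of gut mesenchyme, was the forkhead gene with the largest difference among those that reached 1 RPKM, and it was lower in supportive ISEMFs. It had 64 reads (RPKM 0.379) against 918 reads (RPKM 5.59), which is 14.8-fold lower (11.4 to 19.3, log2 ratio -3.57). Among forkhead genes it was at rank 5 by RPKM in non-supportive and at rank 19 in supportive ISEMFs, with the deposited exon lengths. Its paralog Foxf1a, listed under this older name of Foxf1, had 25 reads against 60 and was 2.47-fold lower, with an interval of 1.53 to 4.11 that reaches below 2. The RPKM of both FoxF genes summed to 0.665 in supportive and 6.30 in non-supportive ISEMFs. Foxl1, the other forkhead gene that marks subepithelial mesenchyme, is classed as a pseudogene in the deposited table and is therefore not a member. It was read 1 time in supportive and 0 times in non-supportive ISEMFs.

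Forkhead genes that sit beside each other in the genome did not all share a direction. On chromosome 13 of mm9, Foxq1 (31650039 to 31652839), Foxf2 (31717685 to 31723272) and Foxc1 (31898515 to 31902504) follow one another on the plus strand. Foxc1, a factor of mesenchyme and blood vessels, had 402 reads (RPKM 1.41) against 76 reads (RPKM 0.274), which is 5.14-fold higher in supportive ISEMFs (4.01 to 6.66), while Foxf2, 175 kb away, was lower. Foxq1, a factor of hair and stomach epithelium, had 16 reads against 60 and was 3.86-fold lower (2.19 to 7.18), but 41.6% of its exon bases overlap A530084C06Rik on the opposite strand. On chromosome 8, Foxf1a (123608286 to 123610851) and Foxc2 (123640071 to 123642792) are 29.2 kb apart. Foxc2, the paralog of Foxc1, had 1366 reads (RPKM 7.02) against 575 reads (RPKM 3.04), which is 2.31-fold higher (2.09 to 2.55). In both places the FoxC gene had the higher ratio and the FoxF gene a ratio under 1.

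**Figure D3:**
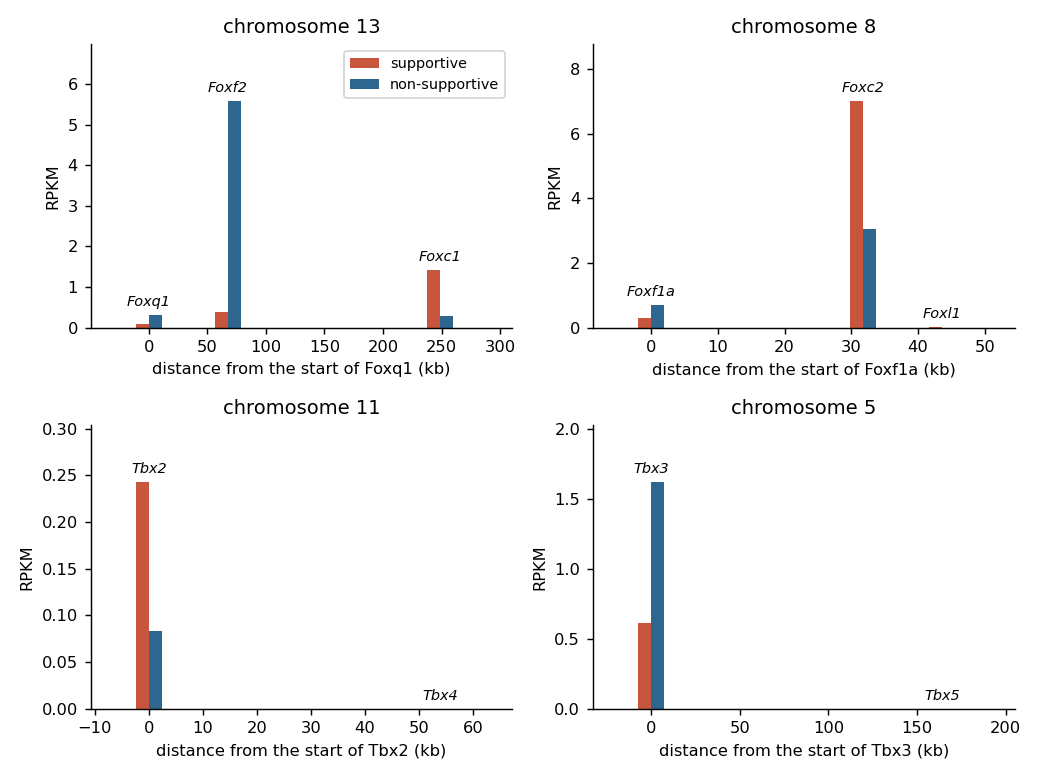
RPKM of neighboring forkhead and T-box genes in each library against the distance in kilobases between gene starts, in 4 panels, with 1 bar per library. Foxf2 and Foxc1 differ in opposite directions, as do Foxf1a and Foxc2, and Tbx4 and Tbx5 are at 0 beside Tbx2 and Tbx3.

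The promoters of Foxf2 and Foxc1 are shown because these neighbors differ in opposite directions, with CpG in capitals as before. Both lie on the plus strand in GRCm38.p6, Foxf2 at chr13:31625566-31625865 with 27 CpG and Foxc1 at chr13:31806396-31806695 with 32 CpG.
Foxf2 promoter: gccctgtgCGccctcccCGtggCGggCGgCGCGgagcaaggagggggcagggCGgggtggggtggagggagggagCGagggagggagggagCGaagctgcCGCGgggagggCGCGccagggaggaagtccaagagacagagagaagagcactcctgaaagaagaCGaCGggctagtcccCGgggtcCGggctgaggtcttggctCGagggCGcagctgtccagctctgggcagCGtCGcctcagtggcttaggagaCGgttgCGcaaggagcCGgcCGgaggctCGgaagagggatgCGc
Foxc1 promoter: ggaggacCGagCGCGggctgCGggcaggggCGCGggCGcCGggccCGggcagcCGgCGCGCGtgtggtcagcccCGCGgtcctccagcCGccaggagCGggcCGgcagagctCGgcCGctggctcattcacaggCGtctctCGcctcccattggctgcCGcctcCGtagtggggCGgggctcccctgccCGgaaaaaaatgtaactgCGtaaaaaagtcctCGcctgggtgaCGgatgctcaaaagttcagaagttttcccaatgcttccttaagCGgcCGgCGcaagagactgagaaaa

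Foxd1, a factor of stromal progenitors in the kidney, was detected in supportive ISEMFs alone. It had 104 reads and an RPKM of 0.591 there and no read in the non-supportive library, which is 33.7-fold higher when the absent reads are set to 3. The lower bound of its exact interval was 26.9. Foxd2 had 13 reads against 12. Foxd3, a neural crest factor, had 1 read in the non-supportive library alone and Foxd4 none in either. Foxs1, linked to perivascular cells, had 513 reads (RPKM 5.48) against 133 reads (RPKM 1.46), and was 3.75-fold higher (3.09 to 4.57). Among the pericyte markers, Pdgfrb was 3.66-fold higher and Rgs5 4.10-fold lower in supportive ISEMFs, with Mcam and Cspg4 within 2-fold, and the part of pericytes in the result was not tested.

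Foxo1 was the most abundant forkhead gene of supportive ISEMFs by the deposited exon lengths, and the only FoxO gene beyond 2-fold by the rules used here. It had 5359 reads (RPKM 13.5) against 1244 reads (RPKM 3.23), which is 4.19-fold higher (3.94 to 4.46, log2 ratio 2.03). Its rank among forkhead genes was 1 in supportive and 10 in non-supportive ISEMFs. Foxo3 had RPKM values of 8.37 and 6.63, a ratio of 1.26 (1.21 to 1.32), and Foxo4 had 2.20 and 1.26, a ratio of 1.75 (1.53 to 2.01). Foxo6 had 8 reads and 0. The summed RPKM of the FoxO genes was 24.1 in supportive and 11.1 in non-supportive ISEMFs, a ratio of 2.17.

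Foxo1 lies on the plus strand, with its promoter at chr3:52268087-52268386 of GRCm38.p6, and is shown as the leading forkhead gene of the supportive library. It holds 31 CpG and 3 matches to CCAAT on the opposite strand, printed here as ATTGG. They lie at -162, -55 and -23 from the transcript start.
Foxo1 promoter: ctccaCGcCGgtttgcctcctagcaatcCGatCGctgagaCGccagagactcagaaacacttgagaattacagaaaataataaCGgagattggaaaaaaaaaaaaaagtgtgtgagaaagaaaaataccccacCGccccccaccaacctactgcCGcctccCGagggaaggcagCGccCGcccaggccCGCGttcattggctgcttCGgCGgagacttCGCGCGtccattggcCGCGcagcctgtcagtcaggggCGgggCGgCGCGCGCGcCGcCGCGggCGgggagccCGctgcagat

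Genes upstream and downstream of FoxO factors were taken from fixed lists. Of the 8 regulators, 7 reached 1 RPKM. None of these 7 was at least 2-fold higher and 1 was lower, where 9.25% and 8.98% of all protein-coding genes were. The lower one was the kinase Sgk1, with an RPKM of 1.43 against 3.86. Pik3r1, a subunit of the PI3 kinase, had the highest ratio of the 7, at 24.5 against 12.9. Akt1 was at 3.80 and 5.98. Of the 19 listed FoxO targets, 14 reached an RPKM of 1, with 5 at least 2-fold higher, 1 lower and 8 within 2-fold, and a median log2 ratio of 0.13, where 9.25% of all protein-coding genes were higher and 8.98% lower. The 5 higher targets were Gadd45a, at an RPKM of 46.9 against 9.57, the cell cycle inhibitor Cdkn1b at 14.2 against 3.76, Sesn1 at 10.2 against 3.71, Fbxo32 at 3.09 against 1.19, and Pik3ip1 at 1.98 against 0.689. Cited2 was the lower one, at 16.8 against 45.6. Of the genes of antioxidant enzymes, Cat was at 18.5 against 25.6 and Sod2 at 5.68 against 5.95.

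Foxp1 was at rank 2 among forkhead genes in both libraries with the deposited exon lengths. It had 11414 reads and an RPKM of 10.9 against 7152 reads and an RPKM of 7.03, a ratio of 1.55 (1.51 to 1.60). Foxp2, best known from speech and brain development, had 2004 reads (RPKM 1.29) against 299 reads (RPKM 0.197), and was 6.51-fold higher in supportive ISEMFs (5.77 to 7.38). Foxp4 had 308 reads against 336, with an interval of 0.959 to 1.31 for the fold. Foxp3, the factor of regulatory T cells, had 68 and 66 reads. The T-cell markers Cd3d and Cd2 had none in either library, Cd3e had 0 and 3, Cd4 had 12 and 22 and Cd8a had 5 and 0, and 21.7% of the exon bases of Foxp3 are shared with other genes. Foxn3, a repressor tied to the cell cycle checkpoint, had 3348 reads (RPKM 10.3) against 1504 reads (RPKM 4.76), which is 2.16-fold higher (2.04 to 2.30). Foxn2 was nearly level, at 3.89 and 3.63. Foxn1, the factor of thymus and hair epithelium, was at 3 reads against 73, 25.0-fold lower with a wide interval of 8.24 to 124, and its RPKM did not pass 0.327.

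The FoxK, FoxJ and FoxM genes that reached 1 RPKM were within 2-fold. The metabolic regulators Foxk1 and Foxk2 were at an RPKM of 8.16 and 4.76 in supportive and 8.60 and 6.67 in non-supportive ISEMFs, where Foxk1 was the most abundant forkhead gene. Foxk1 was 1.05-fold lower (1.02 to 1.09) and Foxk2 1.40-fold lower (1.33 to 1.47) in supportive ISEMFs. Foxk1 was also the one named gene whose direction depended on the scaling, with a log2 ratio of -0.07 that became 0.04 when mitochondrial genes were left out of the totals. Foxj2 and Foxj3 had ratios of 1.55 and 1.11. Foxm1 had 3333 reads (RPKM 5.77) against 2321 reads (RPKM 4.14), a ratio of 1.40 (1.32 to 1.47). Of the 15 listed FoxM1 targets, 14 reached an RPKM of 1 and none was 2-fold apart in either direction with the pseudocount. Of all protein-coding genes at this level, 9.25% were higher and 8.98% lower. The median log2 ratio of these 14 targets was 0.20, from -0.76 for Cks1b to 0.92 for Cdc25b, which was at 1.68 against 0.842.

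**Figure D4:**
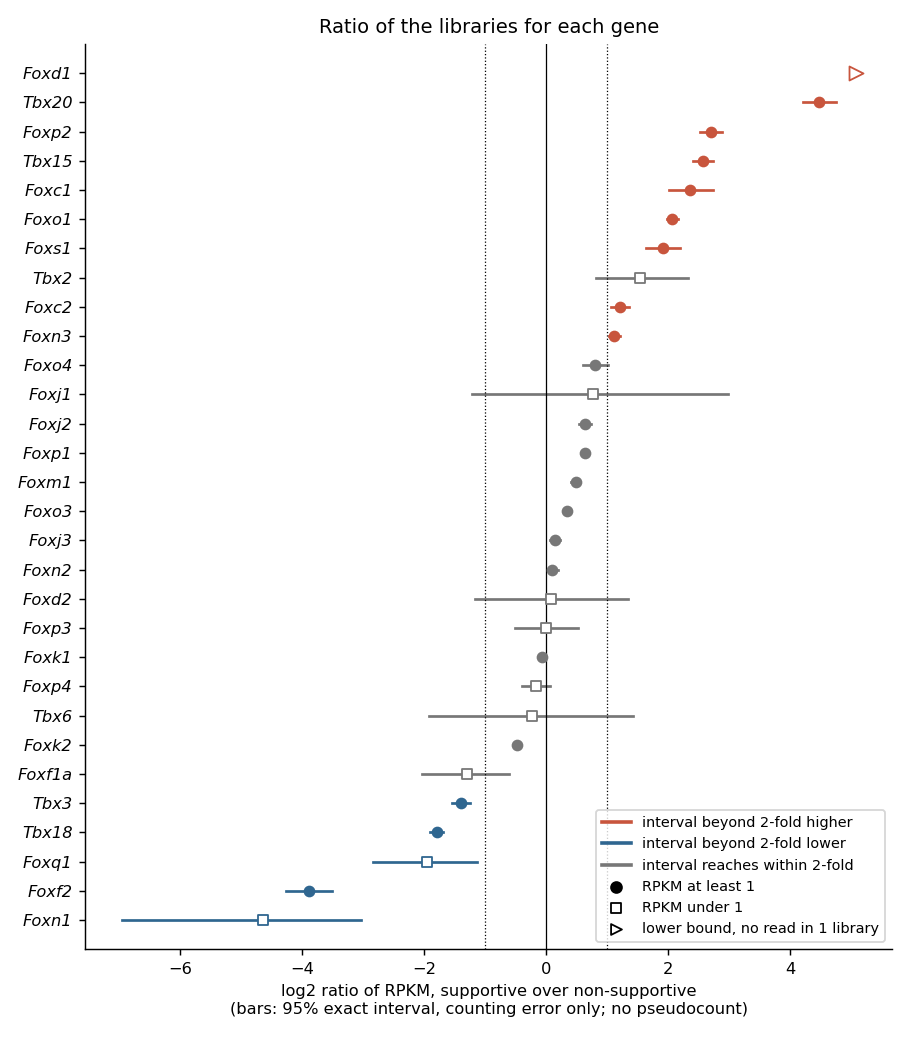
Log2 ratio of RPKM, supportive over non-supportive, of 30 genes with at least 10 reads, with 95% exact intervals for counting error as bars and 2-fold marked by dotted lines. Red marks the 9 genes whose interval lies wholly beyond 2-fold higher and blue the 5 wholly beyond 2-fold lower. The arrowhead, labelled a lower bound, is the ratio of Foxd1 with its absent reads set to 3.

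Several forkhead factors of other lineages had at most 7 reads in either library, while others, among them Foxd1, Foxn1, Foxp3 and Foxq1, had more. The endodermal genes Foxa1, Foxa2 and Foxa3 had 0, 7 and 2 reads (supportive) and 1, 0 and 2 reads (non-supportive). Of the epithelial markers, Epcam had 0 and 5 reads, Krt8 0 and 4, Vil1 7 and 8, Krt18 0 and 19, and Cdx2 none. Cdh1 was 8.58-fold higher in supportive ISEMFs, with 159 reads against 18, and Krt20 was lower, with 11 against 419. Foxj1, the factor of motile cilia, had 7 and 4 reads, Foxh1 had 0 and 1, and Foxl2 had 0 and 1. Foxb1, Foxb2, Foxe1, Foxe3, Foxi1, Foxi2, Foxi3, Foxn4, Foxr1 and Foxr2 had no read. For the 17 genes without a read, 3 reads would correspond to 0.00286 to 0.0430 RPKM (supportive) and 0.00294 to 0.0442 RPKM (non-supportive), so lower levels were not detectable at this depth.

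The Hedgehog pathway, which acts above FoxF and FoxL1 in gut mesenchyme, had 5 genes with higher levels in supportive ISEMFs. Of its 14 listed genes, 8 reached an RPKM of 1, with 5 at least 2-fold higher and none lower, against 9.25% and 8.98% of all protein-coding genes, and a median log2 ratio of 2.49. The inhibitor Hhip had 4428 reads against 2 and the receptor Ptch1 an RPKM of 37.2 against 5.20. The mediators Gli1 and Gli2 were at 1.98 against 0.0104 and a ratio of 5.05, and the co-receptor Cdon at 12.3 against 1.03. Gli3 was at 4.56 and 5.84. The ligand genes Shh and Ihh had no read, and the ligand gene Dhh had 1 read and 6 reads. The FoxF genes lay in the opposite direction to Gli1, Ptch1 and Hhip, and a link between them was not tested.

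Of 10 listed secreted and receptor genes linked to FoxF and FoxL1, 5 reached an RPKM of 1, with 1 higher, 3 lower and a median log2 ratio of -1.82, where 9.25% of all protein-coding genes were higher and 8.98% lower. Of the 8 with at least 10 reads, 1 was higher and 5 were lower by the counting interval, where 8.71% and 10.5% of all protein-coding genes were called. Bmp4 was higher in supportive ISEMFs at 35.6 against 2.12, and Wnt5a at 0.983 against 17.0, Sfrp1 at 1.45 against 7.53 and Pdgfra at 3.37 against 12.1 were lower. Rspo3 was within 2-fold at 1.37 and 1.20. Below that level, Bmp2 had 0 and 234 reads and Wnt4 had 12 and 45.

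Of the 24 other transcription factors of gut mesenchyme, 11 reached an RPKM of 1, with 4 at least 2-fold higher, 1 lower and 6 within 2-fold, beside the same 9.25% and 8.98% of all protein-coding genes. Among the higher genes, Osr1 was at 4.96 against 1.20, Gata6 at 6.15 against 1.76 and Snai2 at 59.0 against 19.8. Hand2 was lower, at 1.75 against 5.18. The gut mesenchyme factor Nkx2-3 was close in both, at 8.15 and 6.96, as were Meis1 at 4.58 and 3.99 and Meis2 at 4.88 and 5.01. Barx1, the stomach mesenchyme factor, had no read in either library.

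Of 10 listed partners and targets of T-box factors, 5 reached an RPKM of 1, with 1 higher and 2 lower, beside the same shares of all genes. Fgf10, a growth factor induced by T-box factors in limb and lung, was at 10.3 against 27.2, and the gap junction gene Gja1, a target of Tbx18 and its relatives, at 8.34 against 21.1. Ndrg1 was 5.14-fold higher in supportive ISEMFs. The cell cycle inhibitors repressed by Tbx2 and Tbx3 were within 2-fold, with Cdkn1a at 56.5 against 97.6 and Cdkn2a at 1.61 against 1.44. The cardiac partner Nkx2-5 had no read and Gata4 had 6 and 26, so the usual partners of Tbx20 in the heart were near or below detection.

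**Figure D5:**
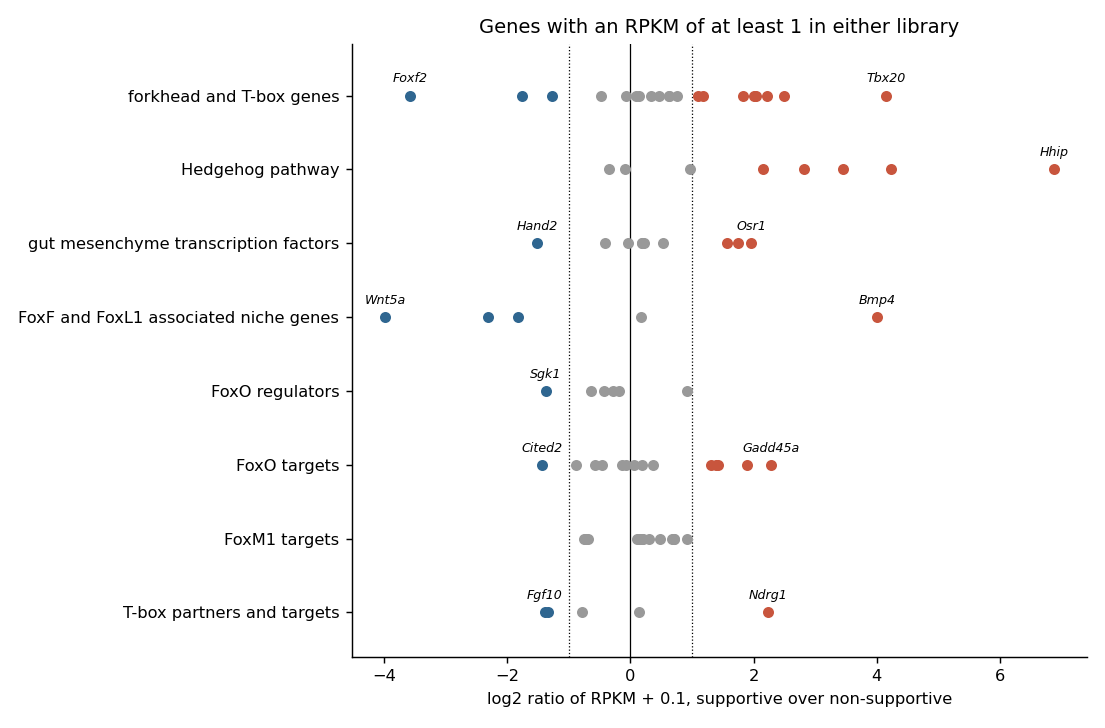
Log2 ratio of RPKM plus 0.1, supportive over non-supportive, of genes that reached 1 RPKM in at least 1 of the libraries, in rows for the forkhead and T-box genes and 7 lists of related genes, with the outermost genes beyond 2-fold labelled. Hedgehog genes beyond 2-fold all lie on the right, FoxM1 targets all lie within 2-fold, and the forkhead and T-box genes spread to both sides.

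Promoter sequence was compared between genes that reached 1 RPKM and genes with fewer than 10 reads. RefSeq promoters of GRCm38.p6 were matched for 37 of the 56 genes, with 45 promoters in all. The 13 promoters of the 11 genes that reached 1 RPKM had a median of 31 CpG and 68.3% G and C, and the 25 promoters of the 20 genes with fewer than 10 reads had 12 CpG and 59.0%. All 21262 promoters of protein-coding genes had medians of 13 CpG and 56.3%. The genes that reached 1 RPKM were not uniform, since the Foxn3 promoter holds 6 CpG. The forkhead motif GTAAACA, searched on both strands, was found in 1 of the 45 promoters (2.22%), that of Foxa1, and in 3.01% of all. The T-box motif AGGTGTGA was found in 0 of the 45 and 1.15% of all, and the Gli motif GACCACCCA in 0 and 0.179%. CCAAT was found in 19 of the 45 (42.2%) and 38.2% of all, and TATAAA in 5 (11.1%) and 12.6%. None of these motifs contains another, and the shares say nothing of binding. The Tbx4 promoter, at chr11:85896515-85896814 on the plus strand, is shown for a gene without a read. It holds 8 CpG and a TATAAA match on the opposite strand, printed here as TTTATA.
Tbx4 promoter: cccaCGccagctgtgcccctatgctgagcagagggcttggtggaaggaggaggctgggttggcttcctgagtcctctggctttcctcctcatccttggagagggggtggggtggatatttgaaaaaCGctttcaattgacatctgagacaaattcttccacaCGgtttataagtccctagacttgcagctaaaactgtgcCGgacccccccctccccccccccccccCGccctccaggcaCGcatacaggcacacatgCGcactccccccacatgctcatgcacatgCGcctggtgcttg

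Comparisons of level between genes depend on the length used for RPKM. The deposited exon length equals that of the GENCODE vM1 annotation for 33 of the 56 genes and is longer for the other 23. With the GENCODE length, Foxn3 rather than Foxo1 had the highest forkhead RPKM in supportive ISEMFs, at 16.6 against 13.5, and Foxk1 was still highest in non-supportive ISEMFs, at 12.3. Foxp1, at 13.4 in supportive and 8.63 in non-supportive ISEMFs, then lay behind Foxn3 and Foxo1 in the former. In the latter it lay behind Foxk1 and Foxk2, which was at 10.7. Tbx15 then had 8.57 and Tbx20 8.49 in supportive ISEMFs, so their order turned. Tbx3 had an RPKM of 1.37 in supportive and 3.61 in non-supportive ISEMFs, so the shares of the summed T-box RPKM change as well. Plain ratios between the libraries do not depend on the length, but log2 ratios with the pseudocount and the 1 RPKM minimum do. The counts of 8 higher and 3 lower genes by RPKM were the same with the GENCODE length.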

How the data were processed

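RNA sequencing of 1 supportive (neonatal) and 1 non-supportive (adult) ISEMF library was analysed. The authors aligned single-end reads to mm9 with TopHat (TopHat2 2.0.4 in the submitters' processing notes), kept unique hits and made the deposited read counts with HTSeq 0.5.4p3. The deposited RPKM values are those counts divided by the authors' exon length and the library size. The authors' exon length is a deposited column of another kind, given in bases. Recomputing RPKM from the counts gave the same values within a relative difference of 1.2e-06. The deposited table also holds the authors' log2 ratio and p-values, and these were not used, nor was a shorter table of Wnt pathway genes. The members, gene lists and rules were chosen with earlier results of these data known.

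With 1 library per population no test across replicates can be fitted. Genes were counted as different when RPKM with a pseudocount of 0.1 differed at least 2-fold where 1 of the libraries reached 1 RPKM, or when the exact 95% interval of the read ratio, at 10 reads or more, lay beyond 2-fold. Depths were 50674472 and 49615497 reads on genes, of which mitochondrial genes took 14.6% and 7.85%. For a gene without reads, 3 reads stood in for the absent ones. Named genes are all members with an RPKM of at least 1 or an interval beyond 2-fold, and other members are given by their reads. From each list, the genes with the largest and smallest ratio were named, and further list genes were chosen after their values were seen. A few genes are counted but not reported here by name or drawn. Positions and exon overlaps came from GENCODE vM1 on the same build, and promoters from RefSeq. The kit is not stated to mark strand, so reads in bases shared by genes on opposite strands may not be told apart. The authors left out reads that could not be placed on 1 gene, so such reads may be missing from the counts. Other pseudocounts, minima, folds, interval levels and scalings were tried, among them TMM factors from edgeR 4.0.16 in R 4.3.3, and the exon length of GENCODE vM1 was added after the data were seen. The interval rule was tested on simulated data. Scripts ran in Python 3.11.15 with scipy 1.17.1, pandas 2.3.3, numpy 2.4.6 and matplotlib 3.10.9.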

Additional observations from a re-analysis of the deposited data

How the results depend on the processing

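With the TMM, median-of-ratios, non-mitochondrial and median-centred scalings, the counts of 8 higher and 3 lower genes by RPKM and of 9 higher and 5 lower genes by interval kept the same genes. The non-mitochondrial scaling shifted log2 ratios without a pseudocount by 0.12, the most of the 4 scalings, and those with the pseudocount by less for genes of low RPKM. By RPKM, the higher count was 4 with a pseudocount of 1 and 5 at 4-fold, and the lower count was 6 without a minimum RPKM and 1 at 4-fold. By interval, 5 genes were higher and 2 lower at 4-fold. The other alternatives, including the GENCODE exon length added after the data were seen, kept each count within 1.5 times. Of the log2 ratios of the 23 named genes under 6 alternatives, 1 of 138 values changed sign, that of Foxk1, which was not called. No leaving out of a library and no paired analysis was possible because each population has 1 library. Counting error limits genes with few reads, such as Foxn1, Foxq1, Foxf1a and Tbx2, and the variation between cultures is unknown for all.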

Other observations

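Other genes of these families lay outside the naming rule. Mga, a large T-box protein that pairs with Max, had an RPKM of 7.42 in supportive and 7.82 in non-supportive ISEMFs, a ratio of 0.949 (95% exact interval from the reads, 0.927 to 0.970), at a level like those of the leading T-box genes. Eomes had 0 reads against 23, Tbr1 had 7 against 18, and T, the gene of Brachyury, had 4 against 1. Foxred2, which shares the Fox letters but encodes an oxidoreductase and no forkhead factor, had 996 reads against 194.

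The markers of interstitial cells of Cajal and of neurons and glia each held a gene that stood apart. Ano1 had 12 reads (supportive) and 1005 reads (non-supportive), while Kit had 0 and 6. S100b had 709 reads against 12, while Sox10 had none in either library. Elavl4 had 4 reads against 23. The endothelial markers summed to an RPKM of 0.131 and 0.209, but Tek had 65 reads against 2 and Kdr 2 against 88.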
